A study of Caenorhabditis elegans with 8 samples.

Results

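The let-7 family of Caenorhabditis elegans was followed across 8 miRNA arrays of worms from the Shenzhou-8 spaceflight and its ground controls. Its members were taken as the probes named cel-let-7, cel-miR-48, cel-miR-84, cel-miR-241, cel-miR-793, cel-miR-794 and cel-miR-795, 7 of the 156 probes that carried a C. elegans name. Each was spotted 4 times on every array. Probes are called by the authors' names. Their sequences were not used here, and cross-hybridization among members was not tested. All 7 names matched genes of the RefSeq table.

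The arrays covered the strain LS292, which carries dys-1(cx18) I, a mutation of the worm dystrophin gene, and the wild-type strain N2 (Bristol), each in 4 conditions with 1 array. Static flight combined microgravity with a radiation dose of 1.92 mGy, and 1g flight was spent on an onboard centrifuge with a dose of 2.27 mGy. The ground control was run in a static slot of BIOBOX, the container facility also used in flight, and the no-transport control, titled a transport control in the labels, was not taken to the launch site. Flight and ground control worms were loaded as dauer larvae, kept for 16.5 days at 23 °C and collected 7 h after the end. The labels give none of these values for the no-transport control, and they give no developmental stage at collection. The RNA was total RNA of collected worms, so fewer cells of a type and less of a miRNA per cell cannot be told apart.

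MiRNAs are short RNAs that pair with messenger RNAs, mainly through a short stretch near their 5′ end called the seed, and reduce their translation and stability. The let-7 family shares 1 seed and belongs to the heterochronic pathway, which sets the order of larval cell fates. In worms, let-7 represses lin-41 and drives the larval-to-adult switch of the seam cells of the skin. MiR-48, miR-84 and miR-241 act together at an earlier larval transition by repressing hbl-1, and the nuclear receptor DAF-12, which also governs dauer formation, controls their transcription. MiR-793, miR-794 and miR-795 were placed in the family by their seed. In the RefSeq annotation mir-48 and mir-241 are neighbours with 0 genes starting between them, as are mir-794 and mir-795.

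Spot intensities are given above local background, and a probe was called detected at a spot median of at least 50. Between 11 and 19 of the 156 C. elegans probes reached it per array. The 96 empty spots of an array had a median of -1.5 to 3 and a 95th percentile of 6 to 15. Of 16 marker miRNAs for muscle, neurons, intestine, germline and embryo, or of general abundance, 13 were below 50 on every array, among them the muscle miRNA miR-1 with a highest spot median of 11.5. The exceptions were the neuronal miR-124 on 6 arrays, and lsy-6 and the embryonic miR-38 on 1 array each. Most of the markers that a whole worm should hold were therefore not detected at this signal. With 1 array per strain and condition, precision is limited by the number of arrays.

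Signal within the family was uneven. Let-7 and miR-84 reached 50 on all 8 arrays, which 5 of the 156 C. elegans probes did (3.21%). MiR-795 reached it on 2 arrays, so 3 of 7 members reached it on 2 or more arrays, against 20 of 156 probes (12.8%). The remaining 4 members, miR-48, miR-241, miR-793 and miR-794, stayed under 50 on every array.

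**Figure D1:**
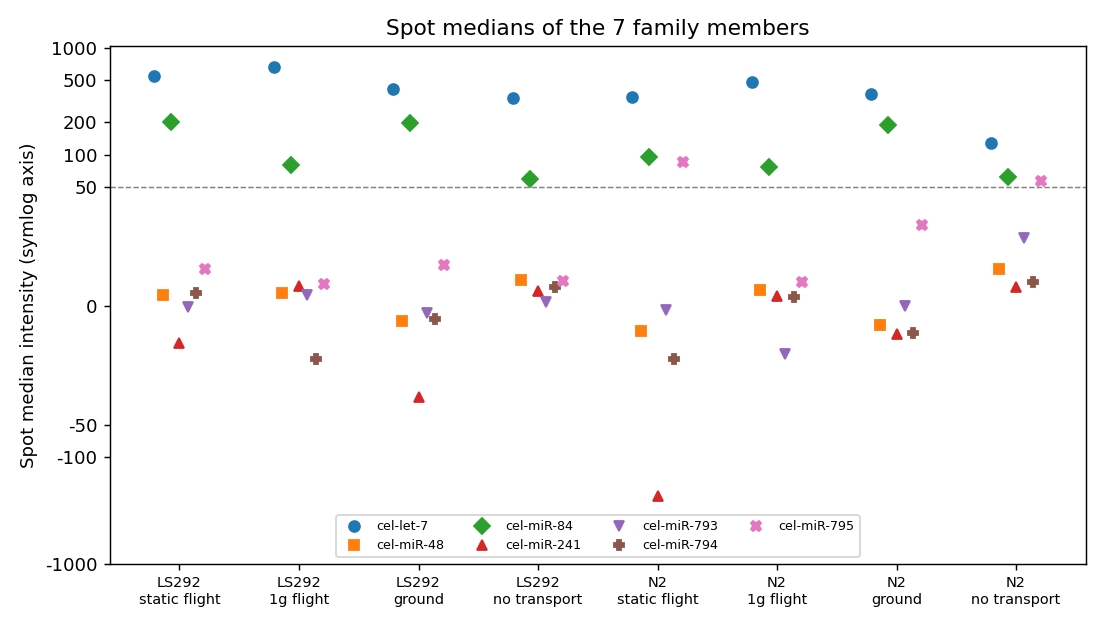
Spot median intensity above local background of the 7 family members (vertical axis, symmetric log) on the 8 arrays (horizontal axis), with a dashed line at the minimum of 50. Let-7 and miR-84 lie above the line on all 8 arrays and miR-795 on 2, while the other 4 members lie below it throughout.

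Let-7, the family's founding member, had spot medians of 548.5, 655, 413.5 and 338 in LS292 in static flight, 1g flight, the ground control and the no-transport control. In N2 they were 343, 479, 367 and 128 in the same order of conditions. In both strains 1g flight had the highest median and the no-transport control the lowest. By foreground alone the medians were 645, 714.5, 527 and 387 in LS292 and 594.5, 532.5, 732.5 and 237 in N2, so the highest N2 array was then the ground control. Above local background LS292 was higher than N2 in each of the 4 conditions, and the ranges of the strains overlapped.

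The 4 spots of let-7 on an array spread widely. Their SD was 298, 433, 279 and 150 on the LS292 arrays and 106, 165, 1179 and 123 on the N2 arrays. The 1g flight spots were 286, 541, 769 and 1303 in LS292, against 372, 496, 455 and -108 in the LS292 ground control. In N2 they were 173, 526, 445 and 513 in 1g flight, against 243, 491, 826 and -1789 in the ground control. Spots of 1g flight and ground control overlapped in both strains. Of the 32 let-7 spots, 28 were at 50 or above.

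The low N2 no-transport value of let-7 rested on a split between spots. Its 4 spots there were 206, 275, 20 and 50, and those of LS292 in the same condition were 139, 309, 367 and 500. At both dim N2 spots the local background was high, at 4.19 and 3.06 times the median of that array. The let-7 spot of -108 in the LS292 ground control also had a high local background, at 7.10 times the array median. In LS292 static flight a spot of 30 had a local background of 0.72 times the array median, and a spot of 636 had 5.30 times. Other brighter spots on high background were 455 in the LS292 ground control (3.25 times), and 318 and 234 in N2 static flight (3.05 and 12.3 times). The dimmest let-7 spot of all, at -1789 in the N2 ground control, had a foreground of 1121 on a local background of 2910, 40.4 times the array median. A link between dim spots and high background was not tested.

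MiR-84 had spot medians of 201.5, 80, 197.5 and 59.5 in LS292 in static flight, 1g flight, the ground control and the no-transport control. In N2 they were 94.5, 76.5, 190.5 and 62. In both strains the ground control lay above 1g flight and the no-transport control, with nearly the same levels in LS292 and N2. Static flight was at the level of the ground control in LS292 and between 1g flight and the ground control in N2. Without subtraction of local background, the foreground medians of miR-84 were 255, 137, 273.5 and 113.5 in LS292 and 347.5, 124.5, 264 and 110.5 in N2, in the same order of conditions. By foreground, static flight was thus above the ground control in N2, on the array where 25.1% of all spots had a local background over 3 times the array's median, and 1g flight and the no-transport control were again the lower pair in both strains.

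The SD of the miR-84 spots was 28.9, 49.0, 74.9 and 124 in LS292 and 218, 208, 40.4 and 8.92 in N2. On several arrays it was below that of let-7. The medians of miR-84 were also lower, so these SDs do not compare spread relative to signal. In 1g flight they were 73, 53, 87 and 165 in LS292, against 136, 196, 315 and 199 in the LS292 ground control, an overlap of 1 spot. In N2 they were 72, 81, 60 and 486 in 1g flight, against 171, 178, 203 and 260 in the ground control. In N2, 3 of the 4 spots of 1g flight lay below every ground control spot, and the fourth, at 486, lay above them all and had a local background of 5.10 times the array median.

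The no-transport spots of miR-84 were 29, 63, 56 and 296 in LS292 and 79, 60, 63 and 61 in N2. In N2 all 4 ground control spots were above all 4 no-transport spots, and in LS292 1 no-transport spot reached the ground control's range. The static flight spots were 165, 211, 192 and 233 in LS292 and 420, 67, -103 and 122 in N2. The N2 spots spanned the LS292 range on both sides, and the spot at -103 had a local background 10.2 times the array median.

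**Figure D2:**
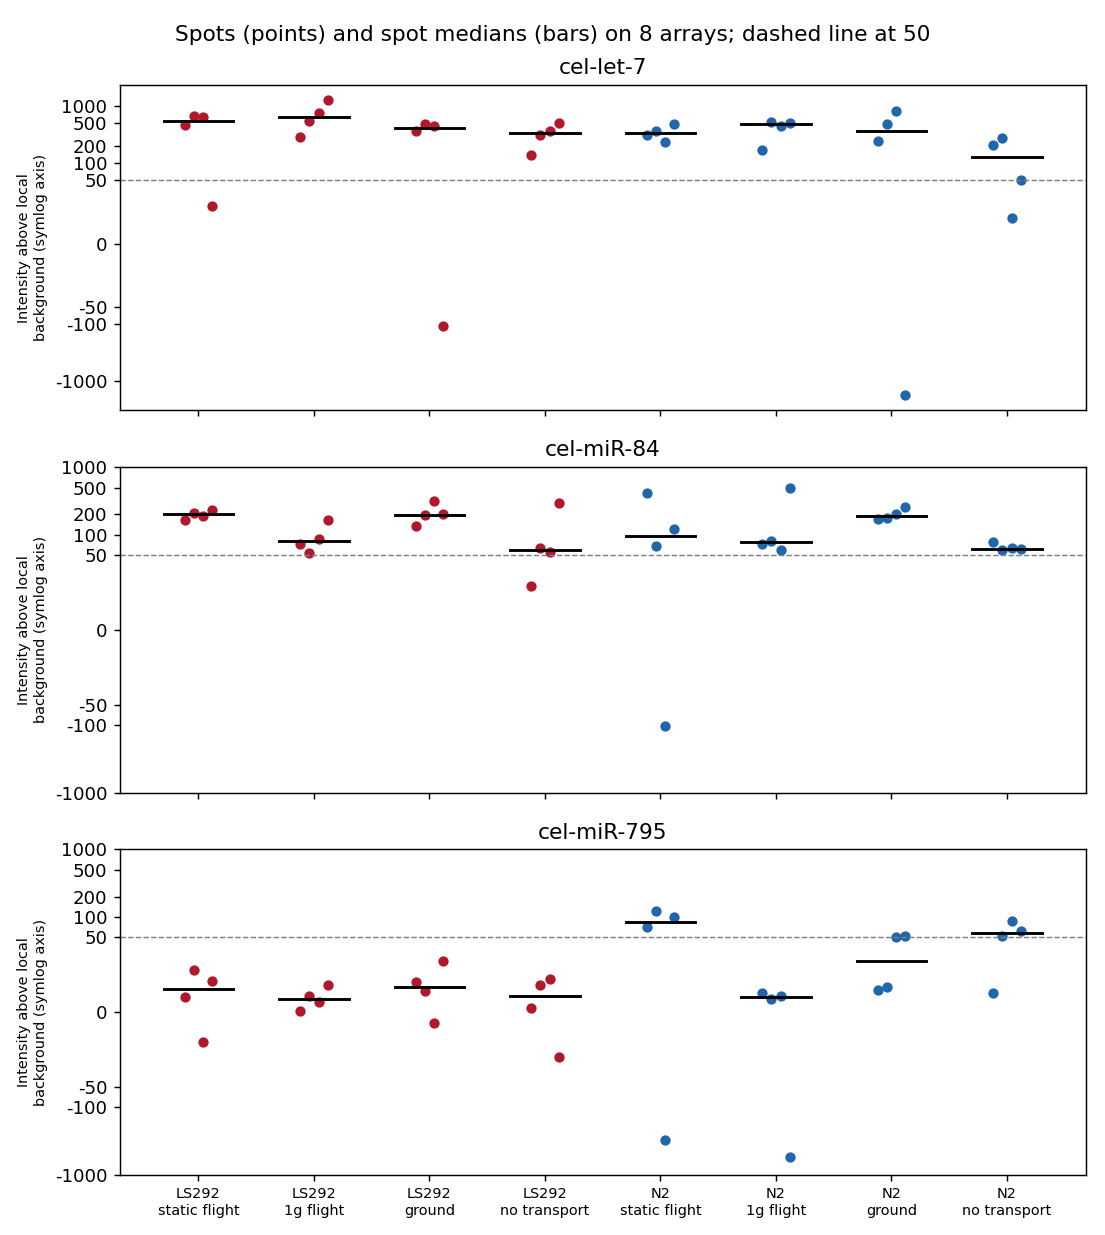
Single spots (points) and spot medians (bars) of let-7, miR-84 and miR-795 on the 8 arrays, as intensity above local background (vertical axis, symmetric log), LS292 in red and N2 in blue, with a dashed line at 50. The miR-84 medians of both strains are near 200 in the ground control (197.5 in LS292 and 190.5 in N2) and under 100 in 1g flight and the no-transport control.

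MiR-795 had spot medians of 15.5, 9, 17 and 10.5 in LS292 in static flight, 1g flight, the ground control and the no-transport control. In N2 they were 85.5, 10, 34 and 57. It was thus below 50 on every LS292 array and reached 50 in N2 static flight and the N2 no-transport control. On the N2 static flight array the spots were 71, 122, -301 and 100, and 8 of its 32 spots on all arrays were at 50 or above.

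The other members gave 0 of 32 spots at 50 or above each. Spot medians ran from -10.5 to 15.5 for miR-48, with a highest spot of 33. They ran from -231.5 to 8.5 for miR-241, with a highest spot of 19. MiR-793 had medians of -20.5 to 28.5 and a highest spot of 38, and miR-794 had medians of -22.5 to 10 and a highest spot of 23. MiR-48 and miR-241, the partners of miR-84 at the earlier transition, were thus not detectable at this signal where miR-84 was, and no difference between strains or conditions was read from them.

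Local background was high at some family spots. It exceeded 3 times the array's median at 22 of the 224 family spots (9.82%), against a mean of 10.5% over all spots of the 8 arrays. Let-7 had 8 such spots of 32 and the other 6 members 14 of 192. On the N2 static flight array 25.1% of all spots were affected, against 4.47% to 12.6% on the other arrays, and 8 of the 28 family spots. MiR-48, miR-84 and miR-795 are printed in the same blocks of the array. In 1 such block of N2 static flight their local backgrounds were 820, 662 and 665, and all 3 probes shared the raised background. With the high-background spots left out, the limma difference of miR-84 in 1g flight against the ground control was -0.47 (SE 0.12, limma adjusted p 0.248), and that of let-7 was 0.35 (SE 0.16, limma adjusted p 0.487).

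**Figure D3:**
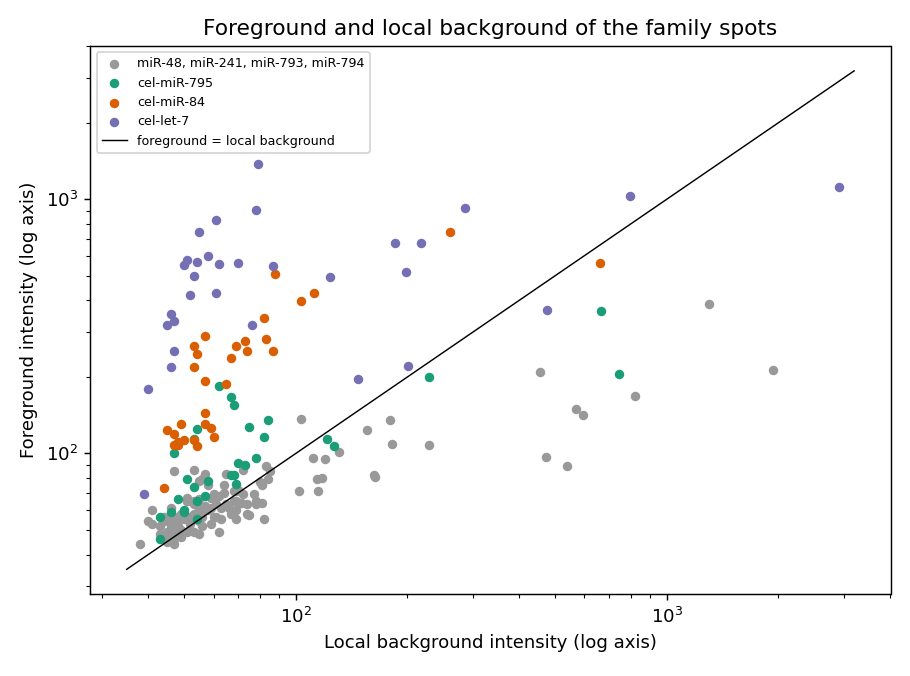
Foreground intensity (vertical axis, log) against local background intensity (horizontal axis, log) of the 224 family spots, coloured by member, with a line where both are equal. Let-7 and miR-84 lie above the line in most spots, and the 4 undetected members (grey) lie near it at low background and mostly below it at high background.

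Family members also set the authors' own scale. The authors divided each array by the median of the 5 C. elegans probes detected on all arrays, of which let-7 and miR-84 are 2 and miR-55, miR-257 and miR-1823 are 3. On 3 of 8 arrays that median was the value of a family member. It was miR-84 itself in LS292 static flight (201.5) and the LS292 ground control (197.5), and let-7 itself in the N2 no-transport control (128). The normalized value of that member is therefore 1 there by construction. Over miR-55, miR-257 and miR-1823 alone the constant of the N2 no-transport array would be 276.5 in place of 128, and those of LS292 static flight and ground control 181 and 176. The other 5 arrays kept their constants.

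Within each strain, 1g flight was set against the ground control to ask what flight does without weightlessness. MiR-84 was lower in 1g flight in both strains under each of 4 scalings. Unscaled spot medians differed by log2 -1.30 in LS292 and -1.32 in N2, and the authors' scaling gave -1.88 in LS292 and -1.40 in N2. Scaling without the family gave -2.04 and -1.40 in LS292 and N2, and scaling to 158 unnamed probes detected on all arrays gave -1.11 and -0.79. By the authors' scaling miR-84 was the 1 miRNA of 8 detected on all 4 arrays (12.5%) that differed 2-fold the same way in both strains. With the unnamed probes as the scale 0 of 8 did so. These differences compare single arrays and had no test.

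Let-7 kept its direction in N2 in that comparison, and in LS292 only scaling without the family turned it. It was higher in 1g flight by log2 0.66 in LS292 and 0.38 in N2 unscaled, and by 0.86 and 0.91 with the unnamed probes. The authors' scaling gave 0.09 in LS292 and 0.30 in N2, and scaling without the family gave -0.08 in LS292 and 0.30 in N2. Let-7 and miR-84 changed unequally: the log2 ratio of let-7 to miR-84 within an array, which no scaling touches, was 3.03 in 1g flight and 1.07 in the ground control in LS292. In N2 it was 2.65 in 1g flight and 0.95 in the ground control. From the foreground alone the ratio was 2.38 in 1g flight and 0.95 in the ground control in LS292, and 2.10 in 1g flight and 1.47 in the ground control in N2.

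The ground control was set against the no-transport control. The labels give duration, temperature and time of collection for the ground control but not for the no-transport control. An effect of transport to the launch site therefore cannot be told apart from differences in these. MiR-84 was higher in the ground control in both strains, by log2 1.73 in LS292 and 1.62 in N2 unscaled, and by 1.56 and 0.75 with the authors' scaling. Scaling without the family gave 1.72 in LS292 and 1.86 in N2, and the unnamed probes gave 0.96 and 0.69. By the authors' scaling 0 of 8 miRNAs differed 2-fold in both strains (0%), and miR-84 did so unscaled and without the family in the scale. Let-7 differed by log2 0.29 in LS292 and 1.52 in N2 unscaled, and by -0.48 and 0.59 with the unnamed probes, so its direction in LS292 turned with the scale. The log2 ratio of let-7 to miR-84 within the array was 1.07 in the ground control and 2.51 in the no-transport control in LS292, and 0.95 in the ground control and 1.05 in the no-transport control in N2. From the foreground alone it was 0.95 in the ground control and 1.77 in the no-transport control in LS292, and 1.47 in the ground control and 1.10 in the no-transport control in N2, which turned the direction in N2.

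Static flight was set against the ground control and against 1g flight. Against the ground control miR-84 differed by log2 0.03 in LS292 and -1.01 in N2 unscaled, and by -0.28 in LS292 and -0.20 in N2 with the unnamed probes. Let-7 differed there by 0.41 in LS292 and -0.10 in N2 unscaled, and by 0.10 and 0.71 with the unnamed probes. For miR-84 the strains thus differed unscaled and were close with the unnamed probes. For let-7 LS292 had the higher value unscaled and N2 with the unnamed probes. These differences between strains were not tested. By the authors' scaling 0 of 8 miRNAs differed 2-fold in both strains (0%). Against 1g flight miR-84 was higher in static flight by log2 1.33 in LS292 and 0.30 in N2 unscaled, and by 1.88 and 0.58 with the authors' scaling. Let-7 differed by -0.26 in LS292 and -0.48 in N2 unscaled, by 0.29 and -0.20 with the authors' scaling and by 0.44 and -0.20 without the family, so its direction in LS292 turned with the scale. By the authors' scaling 1 of 7 miRNAs (14.3%) differed 2-fold in both strains there, miR-257 and no family member.

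LS292 was set against N2 in each condition for the effect of the dystrophin mutation. Let-7 was higher in LS292 by log2 0.68 in static flight, 0.45 in 1g flight, 0.17 in the ground control and 1.40 in the no-transport control, unscaled. With the unnamed probes as the scale the static flight value was -0.15 and the others were 0.41, 0.46 and 1.54. MiR-84 differed by 1.09 in static flight and by 0.06, 0.05 and -0.06 in 1g flight, the ground control and the no-transport control, unscaled. In the no-transport control that difference was -0.51 with the authors' scaling and 0.60 without the family in the scale. With the unnamed probes miR-84 differed by 0.27 in static flight, where 25.1% of the spots of the N2 array had a high local background.

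**Figure D4:**
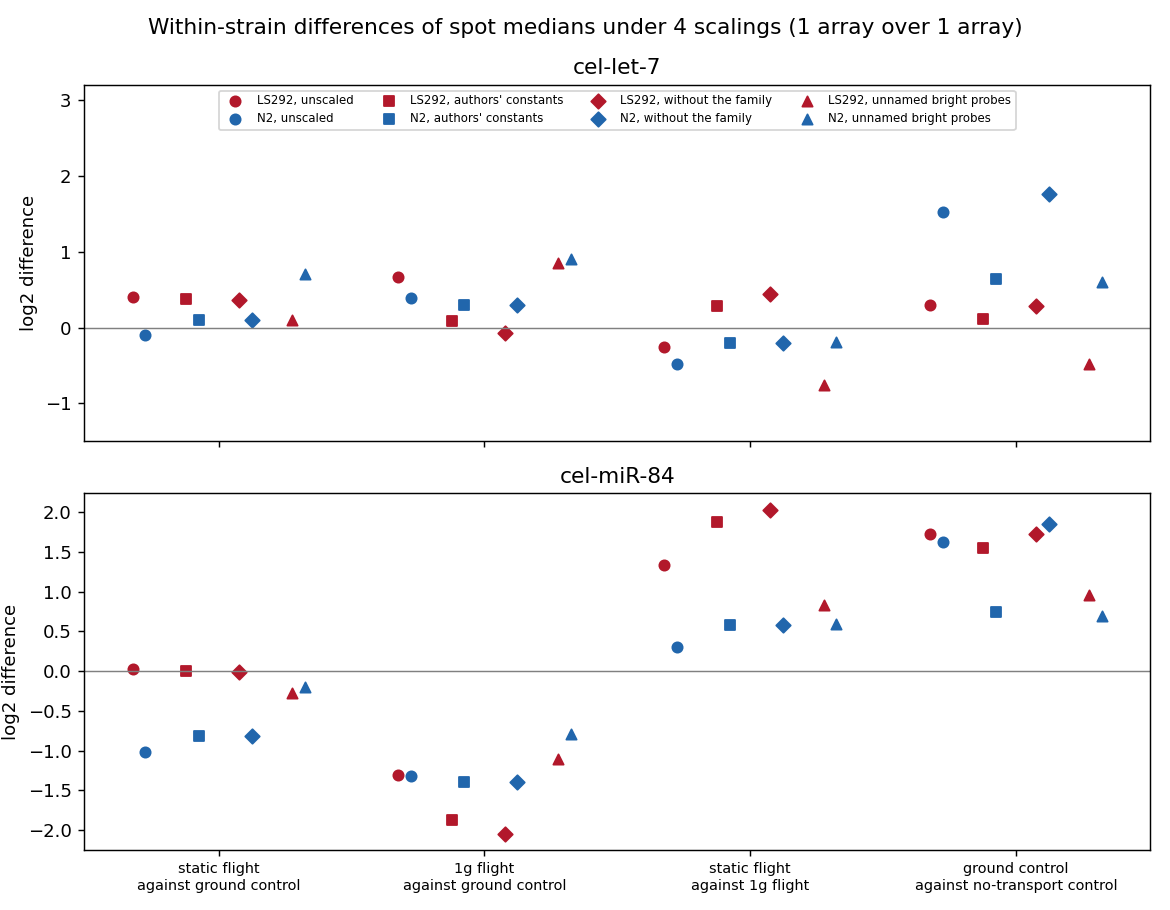
Log2 differences of spot medians of let-7 (upper panel) and miR-84 (lower panel) between conditions, each from 1 array over 1 array of the same strain, under 4 scalings, LS292 in red and N2 in blue. MiR-84 lies below 0 in both strains for 1g flight against the ground control and above 0 for the ground control against the no-transport control under all 4 scalings.

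Conditions were then tested with the strains as their 2 samples, in 1 additive limma fit on quantile-normalized log2 values of the 20 miRNAs detected on 2 or more arrays. The family had 3 of them: let-7, miR-84 and miR-795. MiR-795 passed only through N2 static flight (85.5) and the N2 no-transport control (57). Its comparisons include the arrays that let it pass, so they give no support for or against a difference. No family median is given, because with 3 members it could be the value of miR-795 itself. P-values measure the spread between these arrays, and a response that differed between strains counts as error. No family member passed an adjusted p of 0.05 in any of the 6 comparisons.

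For 1g flight against the ground control limma called 1 of 20 miRNAs (5%), miR-257, and 4 had an unadjusted p below 0.05. The count was 0 without the ground control or no-transport array of either strain, and 2 without N2 1g flight. Let-7 was on average log2 0.70 higher in 1g flight (SE 0.22, limma adjusted p 0.191), with normalized values of 9.08 in 1g flight against 8.67 in the ground control in LS292, and 9.08 against 8.10 in N2. The repeated 8.67, which let-7 also had in LS292 static flight, LS292 no-transport and N2 static flight, arises because quantile normalization sets a value by its rank on the array. The value 9.08 was the highest of the 20 on every array, held by let-7 in 1g flight and by miR-257 in the other conditions. The differences of let-7 and miR-257 are therefore not independent. Sizes on this scale are not comparable with the log2 differences of spot medians. MiR-84 differed by -0.35 (SE 0.19, limma adjusted p 0.496), by -0.01 without the LS292 1g flight array and by -0.64 without the N2 1g flight array (limma adjusted p 0.129). With the unnamed probes as the scale of the fit it differed by -0.08 (limma adjusted p 0.975). MiR-795 differed by -0.17 (SE 0.13, limma adjusted p 0.702). Let-7 was thus higher and miR-84 lower, and the median over the 20 was -0.01.

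For static flight against the ground control limma called 0 of 20 (0%), and 0 had an unadjusted p below that threshold. The difference of let-7 was log2 0.29 (SE 0.22), that of miR-84 -0.15 (SE 0.19) and that of miR-795 -0.01 (SE 0.13), all with a limma adjusted p of 0.991. In static flight against 1g flight miR-257 was called (1 of 20, 5%), and 0 were called without the static flight or no-transport array of either strain. Let-7 differed by -0.41 (SE 0.22, limma adjusted p 0.619), miR-84 by 0.20 (SE 0.19, limma adjusted p 0.687) and miR-795 by 0.16 (SE 0.13, limma adjusted p 0.687). The median over the 20 was 0.02 in the first of these comparisons and 0.00 in the second.

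For the ground control against the no-transport control limma called 0 of 20 (0%), with 1 at an unadjusted p under 0.05. MiR-84 differed by log2 0.46 (SE 0.19, limma adjusted p 0.328), let-7 by 0.08 and miR-795 by 0.04, both with a limma adjusted p of 0.892. The differences of let-7 and miR-84 were both positive, and the median over the 20 was 0.03. On unscaled spot medians, a setting added after seeing the data, 3 of 20 were called (15%), miR-84 among them with a difference of 1.68 (SE 0.36, limma adjusted p 0.0420). In the other settings added then, it differed by 1.79 without the family in the scale (limma adjusted p 0.0982) and by 0.06 with the unnamed probes (limma adjusted p 0.921). The fit with the unnamed probes used normexp-corrected log2 spots in place of spot medians. The median of the unnamed probes detected on all arrays was 392.75 in the LS292 ground control and 230.5 in LS292 no transport. In N2 it was 481 and 253.25 in the same order, and unscaled values do not allow for such differences in array brightness.

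Both flight conditions together, set against both ground conditions, gave 0 of 20 calls (0%), and 3 had an unadjusted p below 0.05. The difference of let-7 was log2 0.53 (SE 0.15, limma adjusted p 0.140). MiR-84 differed by -0.02 and miR-795 by -0.08, both with a limma adjusted p of 0.918. For LS292 against N2 limma called 0 of 20 (0%), and 0 had an unadjusted p below 0.05. The difference of let-7 was 0.33 (SE 0.15, limma adjusted p 0.901), that of miR-84 0.06 (SE 0.14, limma adjusted p 0.947) and that of miR-795 -0.01 (SE 0.09, limma adjusted p 0.970).

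**Figure D5:**
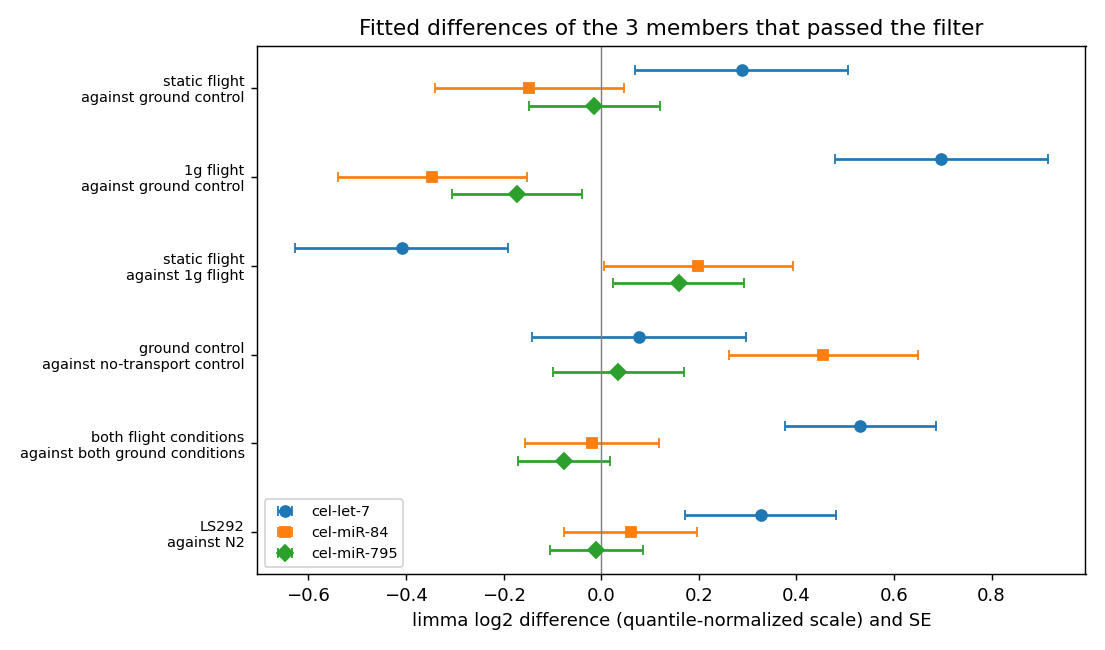
Limma log2 differences (horizontal axis, quantile-normalized scale) of let-7, miR-84 and miR-795 in the 6 comparisons (vertical axis), each with its standard error from a fit of 8 arrays. The largest plotted difference is that of let-7 in 1g flight against the ground control, 0.70 with an adjusted p of 0.191.

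Let-7 and miR-84 did not move together over the arrays. Their Pearson r over the 8 arrays was 0.07 on the quantile-normalized scale and 0.38 on spot medians. MiR-795 had an r of -0.68 with let-7 and -0.16 with miR-84 on the quantile-normalized scale. On spot medians, with those under 50 set to 50, these were -0.29 and -0.19. MiR-795 reached 50 on 2 arrays only, so its r values rest mostly on signal near background. These are descriptions, and the arrays share the normalization. The miRNAs most like let-7 by the same measure were miR-81 (0.70) and miR-73 (0.52). Those most like miR-84 were miR-124 (0.59) and miR-52 (0.40), and those most like miR-795 were miR-56 (0.74) and miR-796 (0.66).

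The other heterochronic miRNAs, lin-4, which represses lin-14 in early larvae, and its relative miR-237, were read in the same way. Lin-4 stayed below 50 on every array, between -16.5 and 18.5. MiR-237 had spot medians of 102.5, 53.5, 38.5 and 41.5 in LS292 in static flight, 1g flight, the ground control and the no-transport control, and of 69, 109, 43.5 and 56.5 in N2. It reached 50 on 5 arrays. In both strains both flight medians were above the ground control median, which was itself under 50. The limma difference of miR-237 against the ground control was -0.02 in static flight and 0.04 in 1g flight. MiR-237 was not called in any of the 6 comparisons, with limma adjusted p-values of 0.846 to 0.991.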

How the data were processed

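Per the labels' protocols, 1 ug of total RNA from each of 8 samples was labelled with the single dye Hy3 using the miRCURY labelling kit. For every one of the 10080 spots on an array the authors deposited its foreground intensity, and the same less the local background, per the file headers. Their deposited normalized values are a ratio to 1 constant per array, which equals the median of 5 C. elegans probes. Repeats were technical and no sample was repeated, per the series' design text. Scanner and image software: not given in the sources used here.

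Members were matched by name, and the members and lists were chosen with earlier results of these data known. Named miRNAs were the 7 members, lin-4, miR-237, miRNAs past a threshold, and the 2 miRNAs most correlated with each member past the filter. Background was corrected with limma normexp (offset 50), the 4 spots of a probe were averaged on the log2 scale, and quantile normalization ran over the 156 named probes (limma 3.58.1, R 4.3.3). MiRNAs at 50 or more on 2 or more arrays were kept (20). An additive fit of strain and condition over 8 arrays, with 3 residual degrees of freedom, used Benjamini-Hochberg adjustment over all 20 and a threshold of 0.05. The fit was run on simulated data with equal shifts in both strains and no quantile normalization. That run does not cover unequal responses of the strains or the normalization used here. Spots over 3 times the array median in local background were counted. Alternatives covered background correction, normalization, spot summary, filter, offset, prior, arrays and the authors' values. The 3 scalings without the family, to unnamed probes and unscaled were added after seeing the data. In the fits, scaling to unnamed probes used normexp-corrected log2 spots. Scaling without the family and unscaled values used spot medians, with those under 50 set to 50. The authors' values had the same floor.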

Additional observations from a re-analysis of the deposited data

Results flagged for a closer look

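In the quantile-normalized values, miR-84 in static flight against 1g flight lay in opposite directions in the strains, with a log2 difference of 0.53 in LS292 and -0.14 in N2. Each strain had 1 array per condition, and the difference between strains was not tested. Unscaled spot medians gave 1.33 in LS292 and 0.30 in N2, so the directions were opposite on the first scale and equal on the second.

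Of the 2145 probes with no name, 158 had a spot median of at least 50 on all 8 arrays, and they served only as one of the alternative scales.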

How the results depend on the processing

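Family members were called in 4 of 136 combinations of setting and comparison: let-7 in 1g flight against ground control with a trended robust prior (adjusted p 0.0404), let-7 in both flight against both ground conditions with that prior (adjusted p 0.0241) and when only miRNAs detected on all 8 arrays were fitted (adjusted p 0.0487), and miR-84 in the ground control against the no-transport control unscaled (adjusted p 0.0420). The cause was not tested. At a minimum of 100, 1 member was detected on all arrays. MiR-48, miR-241, miR-793 and miR-794 lay too close to background on every array to be compared.

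The number of calls in 1g flight against ground control was 0 with the authors' values, background subtraction, high-background spots left out, the median of spots, no background correction, no normalization, only the arrays compared, unnamed probes, scaling without the family and unscaled values, 2 with the trended robust prior, and 0 to 2 with 1 array left out. In static against 1g flight it was 0 under those settings except background subtraction (3) and the prior, 0 with median scaling, and 0 to 2 with 1 array left out. In the ground control against no transport it was 1 with the authors' values, high-background spots left out and the median of spots, 2 without background correction, 3 unscaled, and 0 to 2 with 1 array left out. In both flight against both ground conditions it was 2 with the filter on 8 arrays and the prior, 1 with median scaling and no filter, and 0 to 2 with 1 array left out. In static flight against ground control it was 0 to 1 with 1 array left out.

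Among 402 alternative differences of let-7, miR-84 and miR-795, 58 reversed or became 0, and none of these passed. Let-7: LS292 against N2 was -0.032 without background correction. Ground control against no transport was -0.13 with background subtraction, -0.16 with median scaling, -0.37 with unnamed probes. Static against 1g flight was 0.042 with the authors' values and 0.12 without the family. Static flight against ground control was 0 with the median of spots, without background correction and with high-background spots left out.

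MiR-84: LS292 against N2 was -0.036 with median scaling, -0.11 without normalization, -0.22 with unnamed probes. Flight against ground conditions was 0.018 with the median of spots, 0.30 without background correction, 0.012 without normalization, 0.0092 with unnamed probes. Static flight against ground control was 0.19 without background correction and 0.041 with unnamed probes.

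MiR-795: 1g flight against ground control was 0.0035 with unnamed probes and 0 unscaled. LS292 against N2 was 0.012 without the family. Flight against ground conditions was 0.020 with high-background spots left out, 0.025 with the median of spots, 0.036 without the family, 0.15 unscaled. Ground control against no transport was -0.62 with the authors' values, -0.064 with median scaling, -0.27 with unnamed probes, -0.095 unscaled. Static flight against ground control was 0.47 with the authors' values, 0.085 with high-background spots left out, 0.10 with the median of spots, 0.050 with median scaling, 0.21 without background correction, 0.22 with unnamed probes, 0.46 without the family, 0.39 unscaled.

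With 1 array left out, miR-84 ranged from -0.34 to 0.0058 in static flight against ground control (0.0058 without N2 static flight), -0.11 to 0.49 in static against 1g flight (-0.11 without LS292 1g flight), -0.16 to 0.12 in flight against ground conditions and -0.029 to 0.21 in LS292 against N2. MiR-795 ranged from -0.070 to 0.038, -0.0052 to 0.33, -0.16 to 0.0056 and -0.092 to 0.038 in the same 4 comparisons, and from -0.049 to 0.12 in the ground control against no transport, where let-7 ranged from -0.19 to 0.35 (-0.19 without N2 no transport).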
